A study of Mus musculus with 77 samples.

Results

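Chromosome 19, the smallest mouse autosome, is covered here by all bins of 80 kb that the deposited replication profiles place on it, 766 of 32973 bins in genome build mm9. A bin is replicated, not replicated or without a call in each cell. Of the 766 bins, 726 were called in at least 1 cell, from position 3040001 to 61280000, and 198 were called in every cell. The embryos are products of somatic cell nuclear transfer, or SCNT: an oocyte loses its own nucleus and receives one from a body cell. They were of the BDF1 strain and were cultured in vitro, so SCNT, strain and culture are shared by all groups, and no fertilised embryo is among the samples. Of the 77 single blastomeres, 49 came from 12 embryos of the 8-cell stage and 28 from 14 embryos of the 4-cell stage. Blastomeres were picked by micromanipulation, 1 to 8 per 8-cell embryo and 1 to 4 per 4-cell embryo. Single-cell Repli-seq reads from the DNA copy number of 1 amplified genome which bins the cell had already copied.

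Cells copy their genome in an order during S phase. Early domains tend to be rich in active genes and to lie in the nuclear interior, whereas late domains tend to be poor in genes and to contact the nuclear lamina. In a cell midway through S phase, early domains therefore read as replicated and late domains as not replicated, and the borders between them can be mapped along a chromosome.

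A cell's position in S phase was taken as the percent of its called autosomal bins that were replicated, the authors' replication score. Cells with a score of 30 to 70 are called mid-S. The 8-cell stage has 28 of them in 10 embryos, and the 4-cell stage 18 in 9 embryos. The embryo is the replicate throughout, because cells of 1 embryo share their source. All mid-S 8-cell cells belong to the later of the authors' 2 batches. Of the mid-S 4-cell cells, 8 of 4 embryos belong to the later batch and 10 of 5 embryos to the earlier one, so batch and stage are partly confounded. Between 366 and 726 bins of chromosome 19 were called per cell, with a median of 726, and 5 cells had fewer than 700. Read depth is unknown.

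The cells of 3 embryos stood apart on this chromosome: 8-cell embryo 1, 4-cell embryo 6 and 4-cell embryo 1. Those of 4-cell embryo 6 stood apart on the other autosomes as well. They are described below cell by cell. Stage results are given with them and, where they decide a value, also without them.

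**Figure D1:**
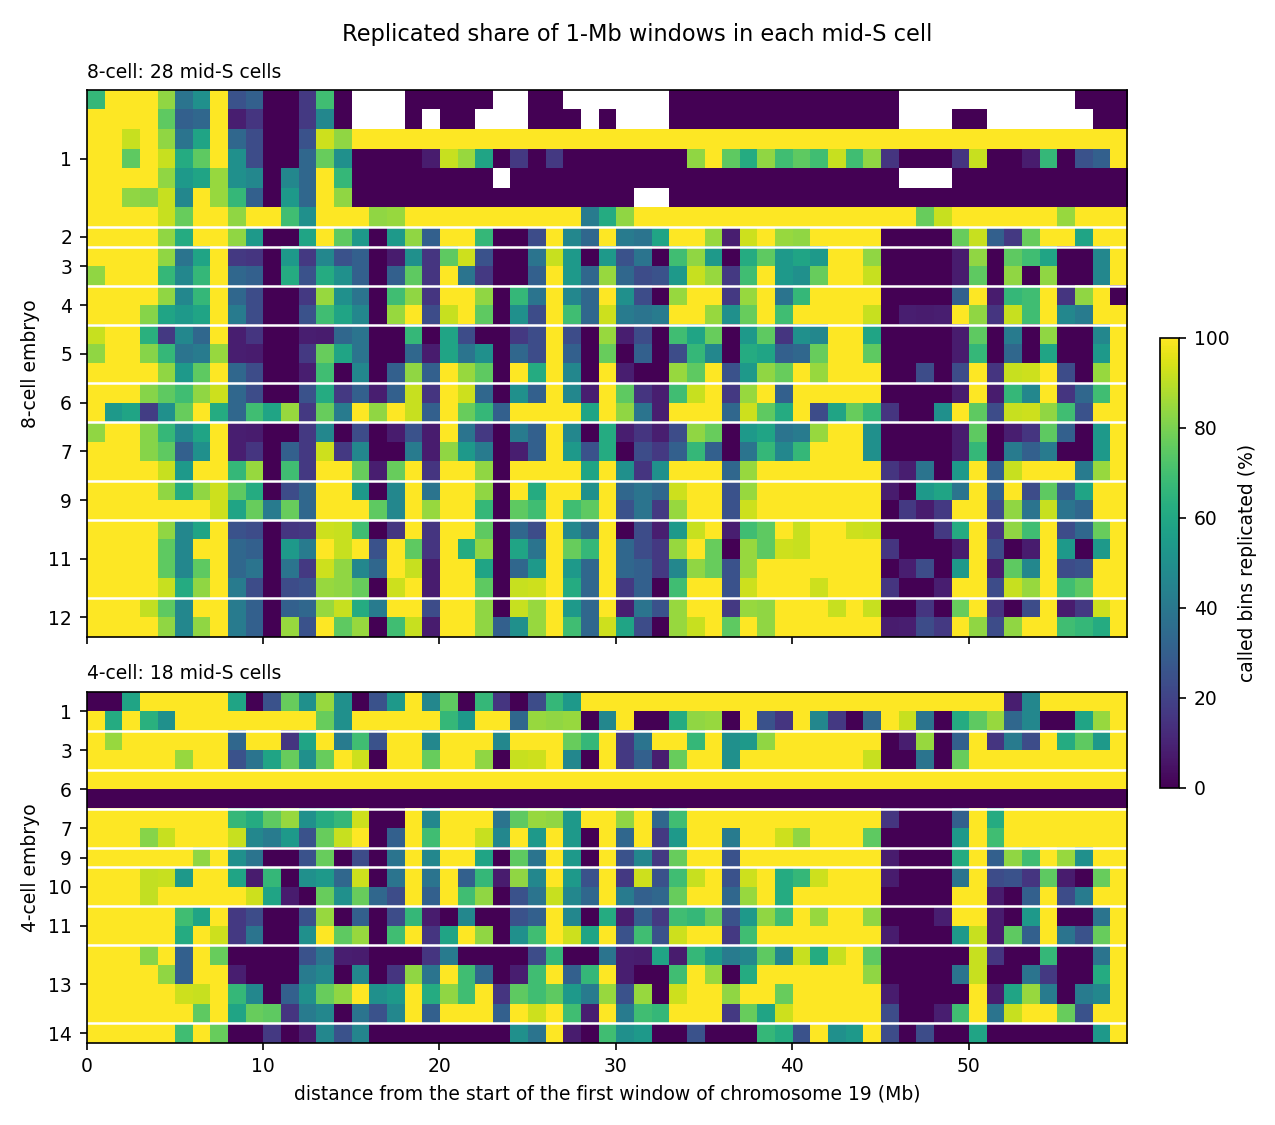
Percent of called bins replicated (colour) in windows of 1 Mb along chromosome 19 (x axis, distance in Mb from the start of the first window) for each mid-S cell (rows, grouped by embryo), with 28 cells of the 8-cell stage above 18 cells of the 4-cell stage; white windows have no called bin. Most rows share 1 striped order, while rows of 8-cell embryo 1 and 4-cell embryos 1 and 6 hold long stretches of a single state.

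Chromosome 19 was replicated ahead of the rest of the genome at the 8-cell stage. In mid-S cells, 57.2% ± 9.94 of its called bins were replicated at the 8-cell stage (SD, n = 10 embryos) and 59.8% ± 13.5 at the 4-cell stage (SD, n = 9). The other autosomes of the same cells stood at 49.5% ± 8.08 and 54.4% ± 8.92. Taken within each cell, chromosome 19 exceeded the other autosomes by 7.70 ± 5.05 points at the 8-cell stage. The 10 embryos ranged from -2.89 points in embryo 1 to 15.4 points in embryo 2, with a median of 8.22, and 9 of them lay above 0. At the 4-cell stage the excess was 5.40 ± 7.07 points. There the 9 embryos ran from -6.72 points in embryo 6 to 14.1 points in embryo 3, with a median of 7.54, and 7 lay above 0. The embryos of both stages overlapped over nearly the whole range.

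The 8-cell excess passed the threshold (two-sided exact sign-flip test over embryos, p = 0.00391, adjusted p = 0.0112 over 20 chromosomes). At that stage 45% of the 20 chromosomes differed from the other autosomes by the same rule, and chromosome 19 ranked 3 of 20 by its mean. The 4-cell excess did not pass (exact sign-flip test, adjusted p = 0.109), at a stage where 20% of the 20 chromosomes did, and chromosome 19 ranked 5. The stages differed by 2.30 points, less than embryos of a stage spread (exact permutation over embryos, two-sided, p = 0.422, adjusted p = 0.732 over 20 chromosomes, of which 0% passed). The 8-cell call was lost when the mid-S range was narrowed to scores of 40 to 60 (7.65 points, exact adjusted p = 0.0568) and without the 2 mid-S cells whose chromosome 19 was at least 90% replicated (6.08 points, exact adjusted p = 0.114). Both cells are of embryo 1, and with its cells of an unreplicated distal part also left out the excess was 7.30 points and passed (exact adjusted p = 0.0174). That last setting was chosen after seeing the data. It leaves cells out by the state of chromosome 19, which the excess itself measures, so its pass does not restore the call. Within the 4-cell stage, the earlier batch gave 5.14 ± 6.44 points (n = 5) and the later batch 5.72 ± 8.82 points (n = 4).

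**Figure D2:**
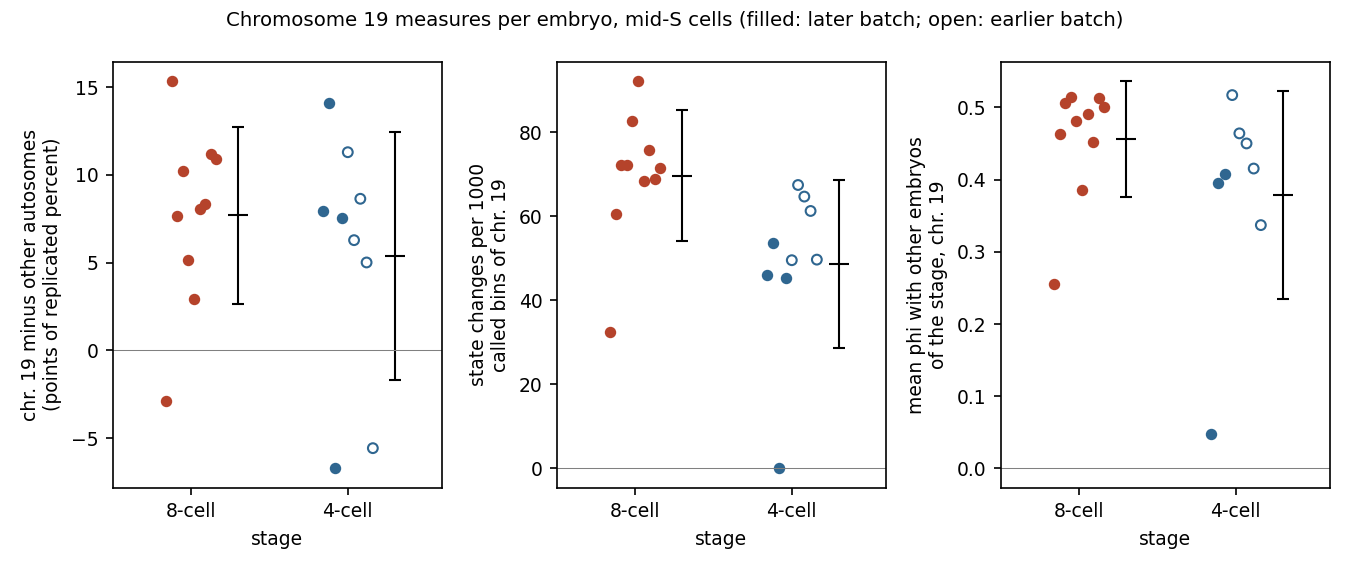
Measures of chromosome 19 per embryo in mid-S cells, with the 8-cell stage left of the 4-cell stage: its replicated percent minus that of the other autosomes, state changes per 1000 called bins, and mean phi with cells of other embryos of the stage. Points are embryos (filled, later batch; open, earlier batch) and bars show the mean and SD; the stages overlap in all 3 panels, and the lowest phi value is 4-cell embryo 1 at 0.0473.

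The order along the chromosome was much alike at the stages. Over the 726 called bins, the mean replicated percent of the 8-cell embryos correlated with that of the 4-cell embryos with r = 0.880 and Spearman's rho = 0.856. This is a description across neighbouring bins of the same libraries and carries no test. The SD across bins was 33.7 points in the 8-cell profile and 27.01 points in the 4-cell profile. Without the 3 embryos that stood apart it was 36.7 and 34.2 points, with r = 0.893, so most of that gap came with those embryos. The mid-S pair of 4-cell embryo 6 alone adds 50% to each of the 710 bins called in both its cells. No stretch of the chromosome stood out when it was cut into 3 of 242 called bins each. The proximal one averaged 59.8% in 8-cell embryos and 62.5% in 4-cell embryos, the middle one 56.9% and 59.02%, and the distal one 53.8% and 57.8%, with SDs of 9.38 to 16.4 points between embryos.

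An early domain was defined as a run of at least 3 called bins that were replicated in at least 80% at both stages, as the mean of embryo values, and a late domain as such a run at 20% or less. This gave 19 early domains with 192 bins (15.36 Mb) and 8 late domains with 71 bins (5.68 Mb). Mapped in each stage alone, the 8-cell stage had 22 early and 15 late domains (21.76 and 13.04 Mb) and the 4-cell stage had 18 and 8 (17.92 and 6.16 Mb). Bins that were neither early nor late made up 37.9% of called bins in 8-cell embryos and 55.6% in 4-cell embryos. Without the 3 embryos that stood apart these shares were 36.2% and 43.7%. The 4-cell stage then had 18 early and 15 late domains (21.28 and 10.56 Mb), and 21 early and 12 late domains were shared by the stages (18.8 and 8.08 Mb). Just inside the early threshold, 61 bins had 80 to 85% as the lower of their stage values, and 55 bins lay just outside at 75 to 80%. Just inside the late threshold, 50 bins had 15 to 20% as the higher of their stage values, and 30 bins lay just outside at 20 to 25%.

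**Figure D3:**
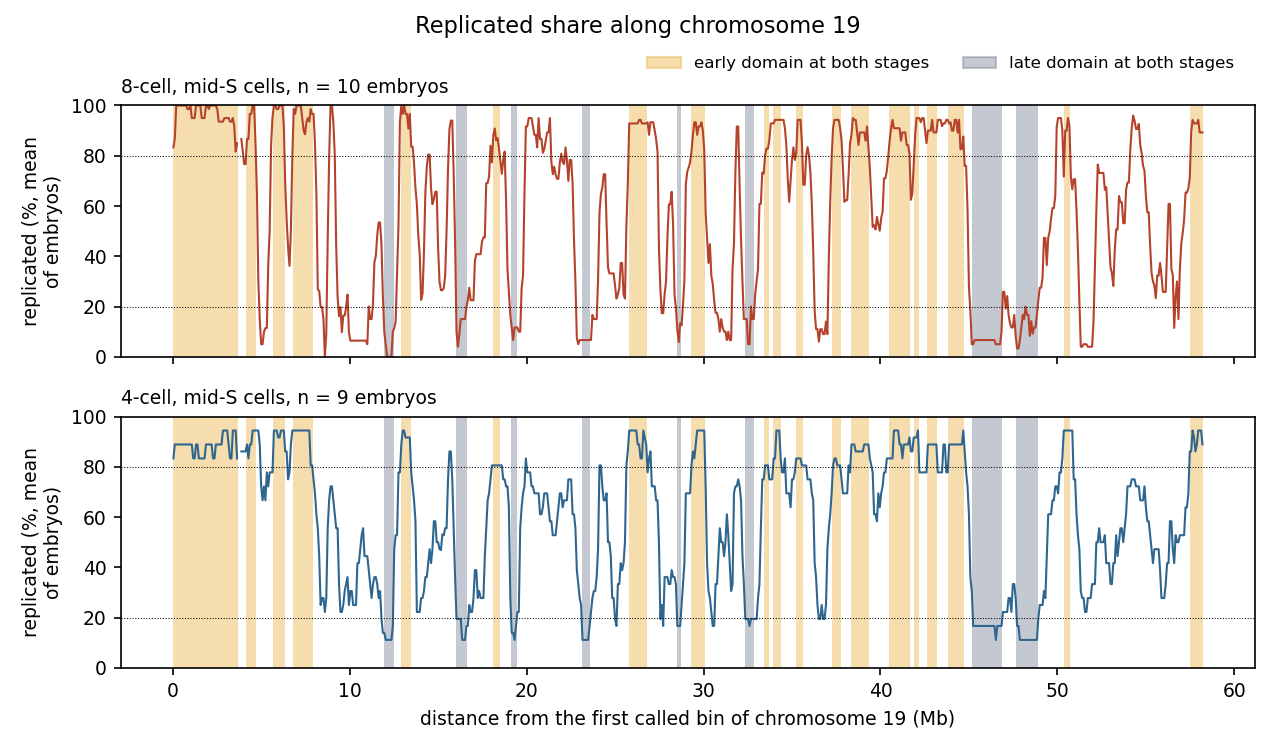
Mean replicated percent of embryos (y axis) in each bin along chromosome 19 (x axis, distance in Mb from the first called bin) in mid-S cells of the 8-cell stage (top, n = 10 embryos) and the 4-cell stage (bottom, n = 9). Shaded spans are the 19 early and 8 late domains found at both stages and dotted lines mark 80 and 20%; the longest early domain opens the chromosome and the longest late domains lie in its distal part.

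The longest early domain opened the chromosome, with 46 bins from 3040001 to 6720000. Its 8-cell embryos lay between 78.3% and 100% replicated with a median of 98.9%, and its 4-cell embryos between 40.2% and 100% with a median of 97.8%. The means were 96.3% ± 6.65 (n = 10) and 88.2% ± 22.2 (n = 9). General maps of the mouse genome place Malat1 and Neat1 there, which encode nuclear noncoding RNAs of speckles and paraspeckles. No mm9 annotation was used here, so this and the other gene placements below are background and not measurements. The order of the named genes along the chromosome was read from the RefSeq table of GRCm38, without its coordinates, and is the same as the order of the domains.

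The other 5 long early domains lay at 9840001 to 10960000, 28800001 to 29840000, 41360001 to 42400000, 43520001 to 44720000 and 46880001 to 47760000. The first holds Fen1, a flap endonuclease that trims Okazaki fragments during replication, and Fads1, a fatty acid desaturase. It was replicated in 96.2% ± 6.76 in 8-cell embryos and 92.5% ± 16.6 in 4-cell embryos. The domain from 28800001 holds Jak2, a kinase of cytokine receptors, and Cd274, which encodes the immune checkpoint ligand PD-L1. It stood at 93.1% ± 21.9 and 91.2% ± 16.3. At the 8-cell stage 9 of its 10 embryos were at 100% and only embryo 1 lay lower, at 30.8%. The domain from 43520001 holds Chuk, a kinase of the NF-kappaB pathway, and Scd1, a stearoyl-CoA desaturase, and stood at 88.6% ± 18.5 and 89.1% ± 17.3. The remaining domains, from 41360001 and 46880001, averaged 89.5% and 90.1% at the 8-cell stage against 87.6% and 89.4% at the 4-cell stage. In each of the 6 the stage means lay closer together than the larger of their SDs.

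The 2 longest late domains were neighbours. The first, with 21 bins from 48240001 to 49920000, ran from 0% to 61.9% replicated over the 8-cell embryos with a median of 0%, and from 0% to 97.6% over the 4-cell embryos, also with a median of 0%. Its means were 6.43% ± 19.5 (n = 10) and 16.4% ± 34.7 (n = 9). Each maximum belongs to 1 embryo that stood apart, 8-cell embryo 1 and 4-cell embryo 1. The 8-cell maximum covers only cells with a call, and calls were missing in cells of embryo 1 with an unreplicated distal part. The second, with 15 bins from 50720001 to 51920000, averaged 12.1% ± 20.9 and 11.9% ± 21.7. Sorcs3 and Sorcs1, long genes for sorting receptors of neurons, lie in this stretch and in the gap between its domains. They follow one another as numbers 641 and 642 of the 705 protein-coding genes of the chromosome in the GRCm38 table.

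The remaining 4 long late domains were shorter and scattered. They began at 14960001, 19040001, 26160001 and 35360001, and ended at 15520000, 19680000, 26640000 and 35920000. Their means were 3.54%, 12.9%, 6.67% and 12.9% at the 8-cell stage against 12.3%, 16.0%, 12.04% and 19.05% at the 4-cell stage. Their medians lay between 0% and 3.65% over 8-cell embryos and were 0% over 4-cell embryos. At the domain from 26160001, 9 of the 10 8-cell embryos had 0% and embryo 1 had 66.7%, again over only those of its cells with a call.

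Cells outside mid-S, which had no part in the map themselves, were read with it. At the 8-cell stage, all of their embryos except embryos 8 and 10 also gave mid-S cells to the map. In the 6 early-S 8-cell cells (score under 30), the late domains were at 0% in every cell, and the early domains were replicated in 44.3% to 77.6% of their bins with a median of 59.4%. The early domains were not alike at that time. The domain that opens the chromosome was already at 65.2% to 91.3%, with a median of 83.7%, whereas the one with Fen1 was at 21.4% to 64.3%, with a median of 32.1%. The domain with Jak2 lay between them with a median of 69.2% and ran from 23.1% to 100%. The 1 early-S cell of the 4-cell stage had 0% on the whole chromosome.

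In the 15 late-S 8-cell cells (score over 70), the early domains had a median of 100% and the late domains a median of 54.9%, with a range of 2.82% to 100%. The long late domains had unlike medians over these cells. Those from 14960001 and 35360001 had a median of 100%, and those from 19040001 and 50720001 had 75% and 66.7%. That from 48240001 had 33.3% and that from 26160001 had 16.7%. Each ran from 0% to 100%, with 5 to 8 of the 15 cells at 90% or more. These are values over cells of 8 embryos, and a difference between the domains was not tested. In the 9 late-S 4-cell cells both kinds had a median of 100%.

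Averaged per embryo, late domains were replicated less than early domains in 8-cell cells outside mid-S by 46.1 ± 20.5 points (34.3% against 80.3%, lower in 9 of 10 embryos and equal in 1, two-sided exact sign-flip test, p = 0.00391). At the 4-cell stage the gap was -14.9 ± 24.1 points in 6 embryos (68.0% against 82.9%), lower in 3 and equal in 3, (exact sign-flip test, p = 0.25). With 3 embryos at exactly 0, that is the smallest p this test could give, so it could not have passed. In the equal 8-cell embryo, embryo 9, all 3 cells had the whole chromosome replicated. Because most of these 8-cell embryos also gave mid-S cells to the map, the 8-cell test reads other cells but not separate embryos.

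Each stage's own map also held in the other stage's mid-S cells. Domains mapped in 4-cell cells differed in 8-cell cells by -81.6 ± 17.1 points between late (7.82%) and early (89.4%). All 10 embryos had this direction, which gives the smallest p possible for 10 embryos (exact sign-flip test, p = 0.00195). Domains mapped in 8-cell cells differed in 4-cell cells by -58.3 ± 34.8 points between late (26.7%) and early (85.03%), lower in 8 of 9 embryos and equal in embryo 6 (exact sign-flip test, p = 0.00781). In the later batch alone the second value was -33.8 points in 4 embryos and did not pass (exact p = 0.25, with too few embryos to reach 0.05).

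Mid-S cells switched between states more often along chromosome 19 at the 8-cell stage. Embryos had 32.6 to 92.3 state changes per 1000 called bins at the 8-cell stage, with a median of 72.0, and 0 to 67.5 at the 4-cell stage, with a median of 49.7. The lowest values were those of 8-cell embryo 1 and 4-cell embryo 6, and the groups overlapped. The means were 69.7 ± 15.6 (n = 10) and 48.7 ± 19.95 (n = 9), which are 21.1 apart (exact permutation over embryos, two-sided, p = 0.0124). The other autosomes of the same cells gave 68.5 against 48.9, a difference of 19.5 (exact permutation test, p = 0.00135), so the size was close to that of the genome; a difference between chromosome 19 and the rest was not tested. The stages also stood at unlike points of S phase, as the other autosomes given above show. Within strata of 10 points of score the difference was 12.3 and did not pass (exact permutation test, p = 0.268), nor did it within scores of 40 to 60 (18.9, exact p = 0.0892). Means also differed by batch: 4-cell embryos of the earlier batch averaged 58.6 changes and those of the later batch 36.3. The later batch alone gave a difference of 33.4 between the stages (exact permutation test, p = 0.00599). Both later-batch values include 4-cell embryo 6, which had 0 changes. The other 4-cell embryos of that batch had 45.5, 46.1 and 53.7, against 49.6 to 67.5 in the earlier batch. The later-batch difference without embryo 6 was not computed.

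How far cells of different embryos shared 1 order was measured with the phi coefficient, which is 1 for identical and 0 for unrelated states. On chromosome 19 it averaged 0.434 over 340 pairs of 8-cell cells (10 embryos) and 0.377 over 109 pairs of 4-cell cells (8 embryos). The difference of 0.057 did not pass (exact permutation of embryo labels, two-sided, p = 0.660). In the same cells the other autosomes gave 0.551 and 0.440, a difference of 0.112 that passed (exact permutation test, p = 0.0258). Single embryos decided the chromosome 19 value. Without 8-cell embryo 1 the difference was 0.193 and passed (exact permutation test, p = 0.0454), and without 4-cell embryo 1 it was -0.0569 (exact p = 0.953). Without all cells that held 1 state over the chromosome or its distal part it was 0.182 (exact p = 0.0655). Pairs that cross the stages averaged 0.380.

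Windows of 1 Mb were compared with limma, with a term for how much of its autosomes each embryo had replicated. Of the 58 windows of chromosome 19, 0 passed an adjusted p of 0.05, where 0.473% of 2536 windows in the genome did. At an unadjusted p under 0.05 there were 7, 3 lower and 4 higher at the 8-cell stage, where 15.5% of all windows met that rule. The smallest adjusted p on the chromosome was 0.175 (limma). The windows with the largest fitted changes are therefore given as description.

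Lower values at the 8-cell stage were fitted for windows 13000001 to 14000000, 34000001 to 35000000 and 8000001 to 9000000. In the first, which lies in the chromosome's olfactory receptor cluster on general maps, 8-cell embryos ran from 0% to 29.2% with a median of 0%, and 4-cell embryos from 0% to 79.2% with a median of 50%. Its means were 6.43% ± 10.9 and 38.7% ± 29.9, and the stages were -24.2 points apart in the fit (SE 8.13, limma adjusted p = 0.188). In the later batch alone that window passed, at -46.3 points (limma adjusted p = 0.0237). The 4-cell side then holds 4 embryos, and embryos 1 and 6, which stood apart, are among them. The value of embryo 6 is the mean of 1 cell at 0% and 1 cell at 100%. The window from 34000001 averaged 30.9% ± 9.7 and 54.1% ± 18.9, a fitted -19.8 points, and -30.8 points at scores of 40 to 60 (limma adjusted p = 0.746). The window from 8000001 ran from 42.3% to 80.8% over the 8-cell embryos, with a median of 49.7%, and from 50% to 100% over the 4-cell embryos, with a median of 76.9%. It had means of 54.3% ± 13.2 and 79.7% ± 18.9, a fitted -19.4 points (SE 6.31, limma adjusted p = 0.175). It passed without the cells of a one-state chromosome 19, at -23.1 points (limma adjusted p = 0.0275). It did not pass when cells of a one-state distal part were left out as well (-21.9 points, limma adjusted p = 0.0569) or in the later batch alone (-11.98 points, limma adjusted p = 0.517).

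Higher values at the 8-cell stage were fitted for 3 windows between 17 and 25 Mb. The window from 23000001 to 24000000 averaged 89.9% ± 16.96 and 70.1% ± 36.6 (fitted 29.5 points), that from 24000001 to 25000000 averaged 80.1% ± 21.7 and 62.2% ± 35.04 (27.6 points), and that from 17000001 to 18000000 averaged 59.1% ± 25.7 and 41.9% ± 24.4 (26.8 points). Their limma adjusted p-values were 0.191, 0.239 and 0.177. Embryos of both stages overlapped in each. At scores of 40 to 60 the fitted change of the window from 23000001 was 8.54 points (limma adjusted p = 0.992).

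Cells in which nearly the whole chromosome held 1 state, with at most 10% or at least 90% of its called bins replicated, were set beside the rest. The split uses the measured state, so no test is given. It took in 10 of 49 cells in 7 embryos at the 8-cell stage, all of them at least 90% replicated, and 11 of 28 cells in 5 embryos at the 4-cell stage, 9 replicated and 2 not. At exactly 100% were 4 cells in 8-cell embryos and 5 in 4-cell embryos, and at exactly 0% were 0 and 2. The position in S phase moved with the split. All 6 and 5 cells with a score over 90 belonged to it, but 2 of 28 and 2 of 18 mid-S cells did as well. These were cells 2 and 3 of 8-cell embryo 1 and the mid-S pair of 4-cell embryo 6.

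**Figure D4:**
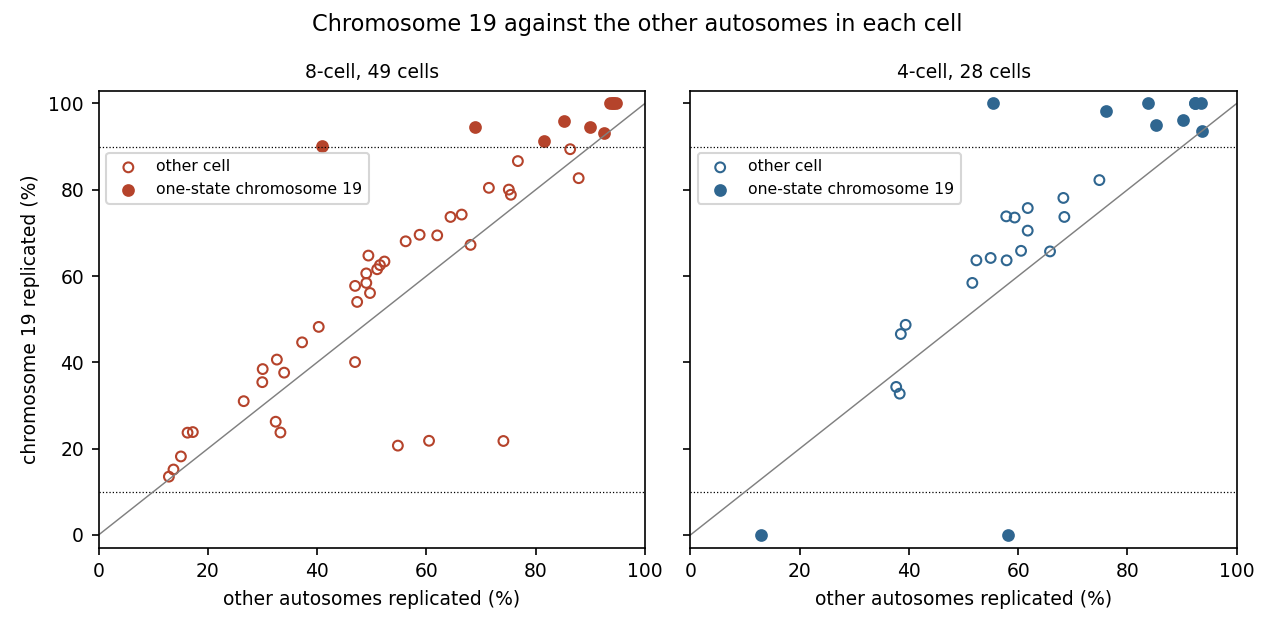
Replicated percent of chromosome 19 (y axis) against that of the other autosomes (x axis) in each cell, for 49 cells of the 8-cell stage (left) and 28 of the 4-cell stage (right). Filled points are cells beyond the dotted lines at 10 and 90%; most sit at the upper right, and the 4 filled mid-S points are cells 2 and 3 of 8-cell embryo 1 and the pair of 4-cell embryo 6.

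Other measures moved with the split as well. Another autosome held 1 state (at most 2% or at least 98% replicated) in 6 of the 10 cells at the 8-cell stage and in all 11 at the 4-cell stage, against 5 of 39 and 0 of 17 of the remaining cells. The noise score had a median of 0.361 in the one-state cells and 0.549 in the rest at the 8-cell stage, and 0.349 and 0.609 at the 4-cell stage. Most one-state cells are late in S phase, and within mid-S the one-state cells did not have the lower median. There the medians were 0.624 in the 2 one-state cells and 0.615 in the rest at the 8-cell stage. Those 2 cells, both of embryo 1, had 0.531 and 0.718, on either side of the rest, so they show no direction. At the 4-cell stage they were 0.803 in the 2 one-state cells and 0.612 in the rest. The other autosomes changed state 24.5 times per 1000 called bins in the median one-state cell and 64.7 times in the rest at the 8-cell stage, and 7.01 and 56.2 times at the 4-cell stage. Their part in the one-state calls was not tested. In the late-S one-state cells that were not fully replicated (8 cells), 58.2% of unreplicated calls, pooled over the cells, fell in the late domains, which held 9.78% of the called bins. Not every cell had this pattern. The 4-cell embryo 6 cell with a score of 76.6 was replicated from 14720001 to the end, and the first late domain starts at 14960001. In 6 of the 8 cells there were unreplicated bins between 48 and 52 Mb.

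In 8-cell embryo 1, all 8 cells were profiled and 7 of them held 1 state from 18 Mb to the end of the chromosome. In cells 1, 4, 5, 6 and 7, which had scores of 59.7, 54.1, 72.8, 32.3 and 33.2, 0% of the called distal bins were replicated. In cell 3, with a score of 42.04, 100% were replicated, and in cell 2, with a score of 69.4, 95.6% were. Cell 8, with a score of 46.8, had 32.5%, just under the lowest of the mid-S cells of other 8-cell embryos. It kept the striped order in part, with an unreplicated run from 29520001 to 37040000 that covers early domains of the map. The distal state thus did not follow the score, since the cell with the highest score was fully unreplicated there and a cell at 42.04 was fully replicated.

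The proximal part followed the map in most of the same cells. From the first called bin to 18 Mb, 48.9% to 91.3% of bins were replicated in the 7 cells, and 72.8% to 95.1% of calls matched the map of the other 8-cell embryos. The lowest matches, 72.8% in cell 2 and 75.7% in cell 5, came from proximal parts replicated in 91.3% and 85.4%. In these cells the match says little. The fully replicated proximal part of the 4-cell embryo 6 cell with a score of 84.1 matched the 4-cell map in 69.7%. The switch was placed, in each cell, where map-like states before it and a single state after it left the fewest mismatches. In the 6 cells with an unbroken distal state it fell between 16480001 and 17840001, a range of 1.36 Mb. Bins in this range were mixed in the 8-cell profile, from 22.6% to 83.6% replicated, so the place of the switch is fixed only roughly. The earliest starts, 16480001 and 16720001, were those of cells 7 and 6, which had the lowest scores. With the switch, 8 to 42 called bins mismatched in the 6 cells, against 198 to 358 with the map alone. The switch was placed to leave the fewest mismatches, and these cells were taken for their unbroken distal state. A drop was therefore built in, and the values are description only. In cell 2, where most of the chromosome was replicated, the best place was 8240001, which the data fix less well, and in cell 8 a switch changed little (159 against 182 mismatches).

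**Figure D5:**
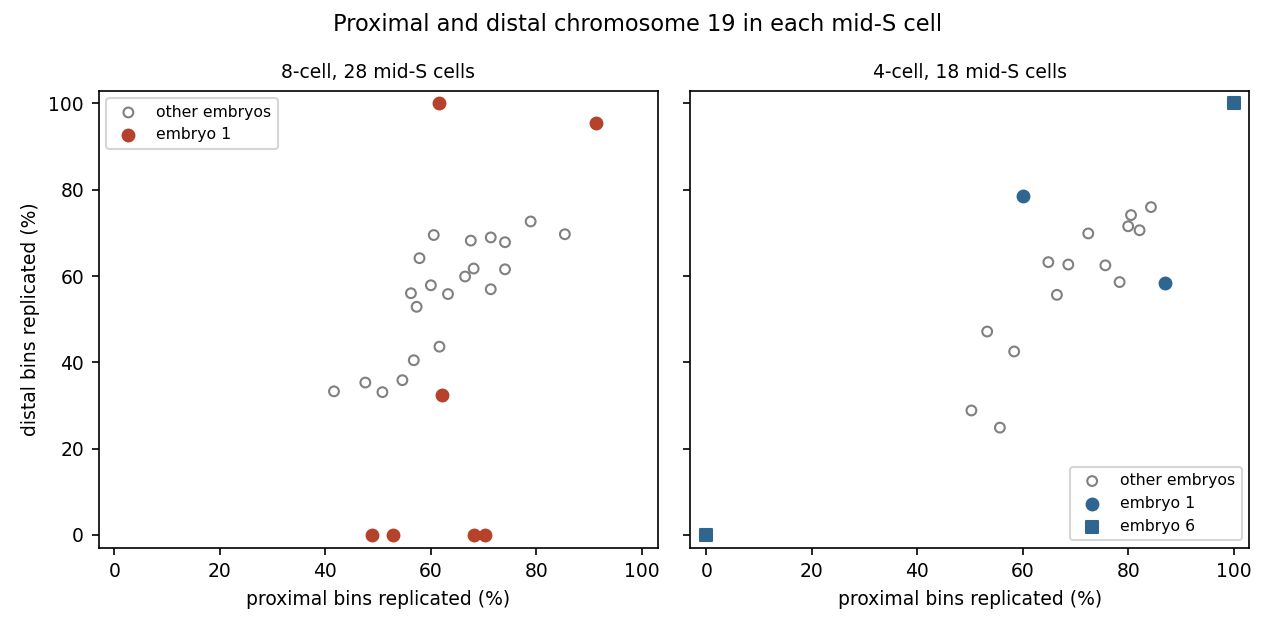
Replicated percent of the distal bins from 18 Mb on (y axis) against that of the proximal bins before it (x axis) in each mid-S cell, with 28 cells of the 8-cell stage left and 18 of the 4-cell stage right. Grey circles are cells of embryos not singled out and filled symbols those named in the legends; 6 of the 7 mid-S cells of 8-cell embryo 1 lie at or near 0 or 100% distally, most with proximal values in the range of the other cells.

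No other mid-S cell of the 8-cell stage showed such a distal part. The 21 mid-S cells of other 8-cell embryos had 33.1% to 72.6% of distal bins replicated, and their longest single-state run was 8.0 Mb at most. Over the other autosomes, the phi coefficient with cells of other 8-cell embryos was 0.421 to 0.596 for the 7 cells, within the 0.363 to 0.617 of the 21 cells. The noise scores of the 7 cells ran from 0.491 to 0.718, and that of cell 3 was the highest of the 8-cell stage. Mid-S 8-cell cells without a one-state chromosome 19 had a median noise score of 0.615. Of the 7 cells, 1 held another one-state autosome. Calls were missing in the distal part of 4 of the unreplicated cells: of 541 distal bins, 411 were called in cell 1, 424 in cell 4, 184 in cell 6 and 193 in cell 7, against all 541 in cells 2, 3 and 5. The part of missing calls, of noise and of DNA copy number in these blocks was not tested.

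In 4-cell embryo 6, the mid-S pair held opposite states over the whole chromosome. Its cells had scores of 56.6 and 56.5, and 0% and 100% of the called bins of chromosome 19 were replicated. All 710 bins called in both were opposite. Over the other autosomes, 3 further chromosomes were opposite one-state chromosomes in the pair and 1 was in the same state, and the phi coefficient of the pair was -0.000661. There the phi coefficient with cells of other 4-cell embryos was 0.206 and 0.186. The 16 mid-S 4-cell cells of other embryos had 0.305 to 0.545, so the departure of this pair was not particular to chromosome 19. The other cells of the embryo, with scores of 76.6 and 84.1, had 98.3% and 100% of chromosome 19 replicated. The noise scores of the pair, 0.801 and 0.805, were the highest among the 4-cell cells.

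The pair of 4-cell embryo 1 departed from the map in another way. At scores of 65.8 and 58.2, 65.7% and 73.8% of the called bins of chromosome 19 were replicated. On chromosome 19 their states were opposite in 51.4% of 726 bins, and both were unreplicated in 4.55%. On the other autosomes 28.3% of bins were opposite. One cell was replicated without a break from 30640001 to 55120000 (24.48 Mb), across the long late domains, and its late domains stood at 66.2% overall. The other had 63.4% of its late domains and 72.4% of its early domains replicated. Their mean phi with cells of other 4-cell embryos was 0.0959 and -0.00122 on chromosome 19, against 0.341 and 0.305 on the other autosomes. In the 17 same-embryo pairs of mid-S 8-cell cells outside embryo 1, 12.1% to 35.8% of chromosome 19 bins were opposite, and in the 10 remaining pairs of 4-cell cells 12.9% to 42.3% were.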

How the data were processed

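Single blastomeres were profiled by single-cell Repli-seq. The authors deposited 1 binary state per 80-kb bin and cell (1 replicated, -1 not replicated, 0 without a call), in coordinates that the submitters' processing notes give as mm9. Aligner and caller: not given in the sources used here. Also deposited by the authors were, per the file headers, a replication score in percent, a noise score (MAD), the embryo and the batch of each cell. The replication score equalled the share of replicated calls among called autosomal bins to within 4.98e-09 points. No column lacked a sample (0). The states carry no read counts, so no counting interval can be given, and copy number values were not used here.

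Values were averaged over cells within an embryo and tested over embryos by exact sign-flip or exact permutation tests, adjusted by Benjamini-Hochberg over 20 chromosomes. Nothing in the labels says that embryos came from separate cultures, so p-values measure the spread between these embryos. Genome windows (1 Mb, 6 or more called bins in a cell, 8 or more such cells in each stage) were fitted with limma over the genome and adjusted over 2536 windows. Phi left out cells with under 5% of either state. On simulated data with 200 changed windows, the window fit recovered 7% of 100 changes of 20 points and 74% of 100 changes of 40 points, with 2 false calls among 2336 unchanged windows.

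Named regions are the 6 longest early and late domains of at least 5 bins and the 3 windows with the largest fitted change in each direction. Genes are named outside that rule. The chromosome, its regions and the lists were chosen with earlier results of these data known. Alternatives changed the mid-S range, the batch, the one-state cells left out, the base of the excess, strata of score, domain and one-state thresholds, single-bin domains, window size, covariate and minimum, and left out each embryo. Software was limma 3.58.1 in R 4.3.3, and scipy 1.17.1, matplotlib 3.10.9, pandas 2.3.3 and numpy 2.4.6 in Python 3.11.15.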

Additional observations from a re-analysis of the deposited data

Results flagged for a closer look

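In 34 groups of embryo values, 19 had 1 embryo far from the others by Dixon's criterion, which about 1 in 20 groups of normally distributed values would meet. That rate does not apply to percents with embryos tied at 0 or 100, as in several of these groups. The groups are also not independent, since the same embryos recur in them. The count is therefore a description only.

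Most of these values belong to 8-cell embryo 1. It had 32.6 state changes per 1000 called bins (next embryo 60.6) and a mean phi of 0.256 with cells of other embryos (next 0.386). Its early domains from 28800001, 41360001, 43520001 and 46880001 were replicated in 30.8%, 45.1%, 41.9% and 38.96% (next embryos 100%, 73.1%, 80% and 81.8%). Its late domains from 26160001, 35360001, 48240001 and 50720001 were replicated in 66.7%, 57.1%, 61.9% and 64.4% (next 0%, 28.6%, 2.38% and 30%). With the map of the 4-cell stage, its late domains were -35.6 points from its early ones (next -74.6). All 8 of these domains lie in the distal part that held 1 state in most cells of this embryo, so their values average replicated with unreplicated cells. Of 541 distal bins, only 411, 424, 184 and 193 were called in the unreplicated cells 1, 4, 6 and 7. Where their calls are missing, the average leans towards the replicated cells 2 and 3.

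In 8-cell embryo 6 the early domains from 3040001 and 9840001 stood at 78.3% and 78.6% (next 94.9% and 92.9%). In 8-cell embryo 9, cells outside mid-S had a gap of 0 points between late and early domains (next -37.5).

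In 4-cell embryo 6, state changes were 0 per 1000 called bins (next 45.5). Its early domains from 9840001, 28800001 and 43520001 stood at 50% each (next 85.7%, 84.6% and 76.7%), the mean of 1 cell at 0% and 1 cell at 100%. In 4-cell embryo 1, the mean phi with cells of other embryos was 0.0473 (next 0.337).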

How the results depend on the processing

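The 8-cell excess of chromosome 19 stayed above 0 in all 6 alternatives and lost its call at scores of 40 to 60 (7.65 points, exact adjusted p = 0.0568) and without cells of a one-state chromosome 19 (6.08 points, exact adjusted p = 0.114). The 4-cell excess did not pass in any of 6 (5.26 to 8.39 points). The stage difference in the excess changed sign at scores of 40 to 60 (-0.744), without one-state chromosome 19 cells (-0.829) and without cells with another one-state autosome (-0.621). State changes kept their direction but did not pass at scores of 40 to 60 (18.9) or in strata of score (12.3). Window calls numbered 1 in the later batch, 1 without one-state chromosome 19 cells, 2 without cells with another one-state autosome and 1 with windows of 400 kb. The 8-cell map read in 4-cell cells did not pass at scores of 40 to 60 (-54.3 points, 6 embryos) or in the later batch (-33.8 points, 4 embryos), where fewer embryos enter. Domain thresholds of 90 and 10% left 10 early and 0 late domains (4 and 0 Mb); the 8-cell stage alone had 9 late domains there, and without 8-cell embryo 1 and 4-cell embryos 1 and 6 there were 17 early and 6 late domains. At 80 and 20%, leaving out those embryos gave 12 late domains (8.08 Mb). Thresholds of 70 and 30% gave 14 late domains (10.1 Mb). One-state 8-cell cells numbered 5 at cutoffs of 5 and 95% and 18 at 20 and 80%. Causes of these changes were not tested. Leaving out cells with a one-state distal part, or the 3 embryos together, was an alternative chosen after seeing the data.

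Without each embryo in turn, the excess ranged from 6.85 to 8.88 points in 8-cell and from 4.31 to 6.91 points in 4-cell embryos, its stage difference from 0.788 to 3.48 and the difference in state changes from 14.97 to 25.2. The phi difference ranged from -0.0569 without 4-cell embryo 1 to 0.193 without 8-cell embryo 1. Window calls ranged from 0 to 1, with 1 without 8-cell embryo 6 (17000001 to 18000000) and 1 without 4-cell embryo 6 (8000001 to 9000000). The gap between late and early domains outside mid-S ranged from -51.2 to -43.4 points in 8-cell and from -17.9 to -6.38 points in 4-cell embryos, that of the 4-cell map in 8-cell cells from -86.7 to -78.1 and that of the 8-cell map in 4-cell cells from -65.6 to -53.9. No paired analysis was possible because the stages are different embryos and replicate numbers only name cells. Read depth is unknown, and 9 to 10 embryos per stage limit the precision.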
